A study of Mus musculus with 9 samples.

Results

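The 3 peroxisome proliferator-activated receptors (PPARs), encoded by Ppara, Ppard and Pparg, and the 3 coactivators of the PGC-1 family, encoded by Ppargc1a, Ppargc1b and Pprc1, were followed through the step from type B spermatogonia to preleptotene (PL) spermatocytes, with and without retinoic acid (RA). These 6 genes were taken by name from the 24505 rows of the count table. The set was chosen by a result of the same libraries, the large rise of Pparg in PL spermatocytes formed without RA, so all values of Pparg are given as a description and without a test.

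The PPARs are nuclear receptors that bind fatty acids and their derivatives and sit on DNA as heterodimers with retinoid X receptors (RXRs), the same partners that RA receptors use. Ppara is best known as the regulator of fatty acid oxidation in liver, Pparg as the regulator of adipocyte formation and lipid storage, and Ppard as a widely expressed receptor with roles in lipid use. The PGC-1 coactivators do not bind such sites themselves and are recruited by nuclear receptors and other factors to genes of mitochondrial biogenesis and oxidative metabolism. In the testis, germ cells depend on the surrounding Sertoli cells for lactate and other fuels, and Sertoli cells themselves use fatty acids.

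RNA came from EGFP+ cells sorted from Uchl1-eGfp mice, a line of C57BL/6 origin outcrossed with CD-1, in which the Uchl1 promoter marks spermatogonia brightly and PL spermatocytes dimly. All groups received the inhibitor of RA synthesis WIN 18,446 by mouth at 100 µg/g from postnatal day (P) 1, up to P11 by the sample records and up to the day before by the paper, then 10 µl of RA at 10 µg/µl under the skin on P11. In/B spermatogonia were taken at P17 and RA-sufficient PL spermatocytes at P19, both after WIN 18,446 had been stopped. RA-deficient PL spermatocytes were taken at P19 from mice kept on WIN 18,446 after the RA injection. There were 3 libraries per group, each from pooled testes of several pups of a litter, and n counts libraries. Stage and age cannot be told apart against In/B, and absence of RA and longer exposure to the drug cannot be told apart between the PL groups.

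A gene was called changed at an adjusted p below 0.05 with a log2 fold change above 1 in size. Total counts ranged from 12612959 to 27042274 per library, so that 3 counts, the limit that a count of 0 allows, corresponded to 0.111 to 0.221 CPM, a gene's counts relative to the library total after TMM scaling. The summed level of 10 meiotic entry markers (Spo11, Dmc1, Sycp3 and others) was 670 to 1300 CPM in In/B, 2373 to 3268 in RA-sufficient PL and 3748 to 4115 in RA-deficient PL, so both PL groups carried the markers of their label. The sum of 8 spermatogonia markers was 5372 to 6897, 2132 to 2456 and 3890 to 6061 CPM in the same order, so it stayed in or near the In/B range in RA-deficient PL. The libraries of RA-sufficient PL also stood apart by Sertoli cell transcripts: the 13 Sertoli markers summed to 3471 to 4686 CPM there, against 86.6 to 417 in In/B and 396 to 694 in RA-deficient PL, and all 13 were called higher than in In/B and lower in RA-deficient PL. RA-deficient PL replicate 3 stood apart from its group, with a chi-square per degree of freedom over genes of 107 and 108 against replicates 2 and 1, beside 6.15 to 59.4 for all other pairs of replicates.

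The stretches just upstream of the start sites are shown for the genes whose levels differed most plainly between groups, Pparg, Pprc1 and Ppard, 250 bases each in the direction of transcription, from RefSeq on the GRCm38.p6 build. Capitals mark AGGTCA, the short element to which PPARs, RXRs and RA receptors bind. Pparg has 3 annotated start regions, and the counts, which were made per gene, do not say which of them was used.
Pparg start 1 (chr6:115360894-115361143, + strand): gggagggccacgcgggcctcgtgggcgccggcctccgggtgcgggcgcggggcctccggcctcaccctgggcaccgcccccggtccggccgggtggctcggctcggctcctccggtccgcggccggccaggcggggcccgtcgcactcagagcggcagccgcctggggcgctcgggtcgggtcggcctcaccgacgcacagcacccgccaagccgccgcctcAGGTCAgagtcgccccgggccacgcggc
Pparg start 2 (chr6:115362099-115362348, + strand): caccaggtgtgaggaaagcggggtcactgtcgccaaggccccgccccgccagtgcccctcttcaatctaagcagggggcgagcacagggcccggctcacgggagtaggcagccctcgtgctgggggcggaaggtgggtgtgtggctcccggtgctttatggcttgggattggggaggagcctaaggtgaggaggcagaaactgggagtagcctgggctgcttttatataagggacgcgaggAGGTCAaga
Pparg start 3 (chr6:115421816-115422065, + strand): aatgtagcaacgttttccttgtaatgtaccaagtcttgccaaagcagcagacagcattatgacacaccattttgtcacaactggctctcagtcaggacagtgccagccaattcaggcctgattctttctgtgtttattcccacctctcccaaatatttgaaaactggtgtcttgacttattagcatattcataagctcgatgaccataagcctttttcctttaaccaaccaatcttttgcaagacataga
Pprc1 (chr19:46056289-46056538, + strand): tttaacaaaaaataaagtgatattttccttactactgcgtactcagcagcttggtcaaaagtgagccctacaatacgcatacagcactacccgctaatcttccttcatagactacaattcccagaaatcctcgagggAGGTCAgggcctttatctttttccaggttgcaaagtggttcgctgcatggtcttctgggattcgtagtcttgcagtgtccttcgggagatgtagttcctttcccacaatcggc
Ppard (chr17:28232504-28232753, + strand): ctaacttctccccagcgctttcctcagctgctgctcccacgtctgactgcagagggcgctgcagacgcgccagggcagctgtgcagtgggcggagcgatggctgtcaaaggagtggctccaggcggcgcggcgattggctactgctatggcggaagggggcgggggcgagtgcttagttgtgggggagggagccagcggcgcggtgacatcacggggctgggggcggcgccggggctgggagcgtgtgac

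The element AGGTCA was searched on both strands. It lay 28 to 23 bases before Pparg start 1, 9 to 4 bases before Pparg start 2 and 113 to 108 bases before the Pprc1 start, and it was not in the windows of Pparg start 3, Ppard, Ppara or Ppargc1a. That is 3 of 7 windows from the 5 members searched, beside 14.0% of all 32851 windows of this length. Windows on chromosome 18, where Ppargc1b lies, were left out of the search of the members but not of the share over all windows. Repeats of the element on the same strand with 1, 2 or 5 bases between, the arrangements known for PPAR and RA receptor dimers, were in 0 of the 7 windows and in at most 0.0335% of all windows. The cAMP response element core TGACG lay in the windows of Ppara (222 to 218 bases before the start) and Ppargc1a (49 to 45 bases, minus strand), beside 17.8% of all windows, and the E-box CACGTG in none of the 7, beside 6.02%. The windows of Pparg starts 1, 2 and 3 were 82.4%, 63.6% and 40.8% G and C, against a median of 52.4% over all windows. A match of letters is a description and not a measured binding site.

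Pparg was almost silent in In/B spermatogonia and was a well expressed gene in both PL groups. It lies on chromosome 6 (115311239 to 115440419, plus strand, mm9 build) and had 1.62, 1.44 and 1.29 CPM in the 3 In/B libraries, from 29, 39 and 23 counts. It had 29.1, 39.8 and 47.1 CPM in RA-sufficient PL and 63.8, 55.0 and 72.1 CPM in RA-deficient PL. None of the 3 groups overlapped another. The means were 1.45 ± 0.164, 38.7 ± 9.07 and 63.7 ± 8.53 CPM (SD, n = 3 each).

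Against In/B the level of Pparg was 27.5-fold in RA-sufficient PL (log2 4.78, SE 0.27) and 47.8-fold in RA-deficient PL (log2 5.58, SE 0.23). These 2 comparisons share their In/B libraries. Of all genes tested, 98.6% had a smaller log2 value than Pparg in the first, and 8 of 14877 had a larger one in the second, where Pparg stood at rank 9. Pparg was picked for its rise in RA-deficient PL, so its rank there restates the choice and is no separate result. RA-deficient PL was 1.61-fold above RA-sufficient PL (log2 0.69, SE 0.21), under the 2-fold change required of a called gene. Pparg was thus high in both PL groups, with WIN 18,446 stopped after the injection and with WIN 18,446 continued. The summed adipocyte markers, among them Adipoq, Retn and Plin1, were 0.447 to 0.627 CPM in In/B, 0.663 to 1.57 in RA-sufficient PL and 0.974 to 2.17 in RA-deficient PL. The Sertoli markers were lower in RA-deficient PL than in RA-sufficient PL (396 to 694 against 3471 to 4686 CPM). Against In/B their median log2 was 4.15 in RA-sufficient PL, where 13 of 13 were called higher. In RA-deficient PL against In/B it was 1.01, where 2 of 13 were called higher. The 10 peritubular and stromal markers summed to 76.9 to 101 CPM in In/B and 84.6 to 94.9 in RA-sufficient PL. In RA-deficient PL the sum was 138 to 148 CPM, so the sum was highest in the group with the highest Pparg. Of 9 tested, 5 were called higher and 1 lower in RA-sufficient PL than in In/B (median log2 1.27), and 3 higher and 0 lower in RA-deficient PL (median 1.62), where 0 were lower at an unadjusted p below 0.05 in edgeR's test. Between the PL groups 1 of these 9, Col1a1, was called higher in RA-deficient PL and 0 lower (median log2 0.12), with 1 lower at an unadjusted p below 0.05 in edgeR's test. Col1a1 was also the 1 marker of this list called lower in RA-sufficient PL than in In/B. Over all genes, 26.1% were called higher and 19.3% lower in RA-sufficient PL than in In/B, and 11.4% and 11.8% in RA-deficient PL. Between the PL groups the shares were 4.47% and 11%. The part of the cells carrying the adipocyte, Sertoli, peritubular and stromal markers in the values of Pparg was not tested. In sorted bulk cells, a change in the number of cells that carry a transcript and a change in its level per cell cannot be told apart.

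**Figure D1:**
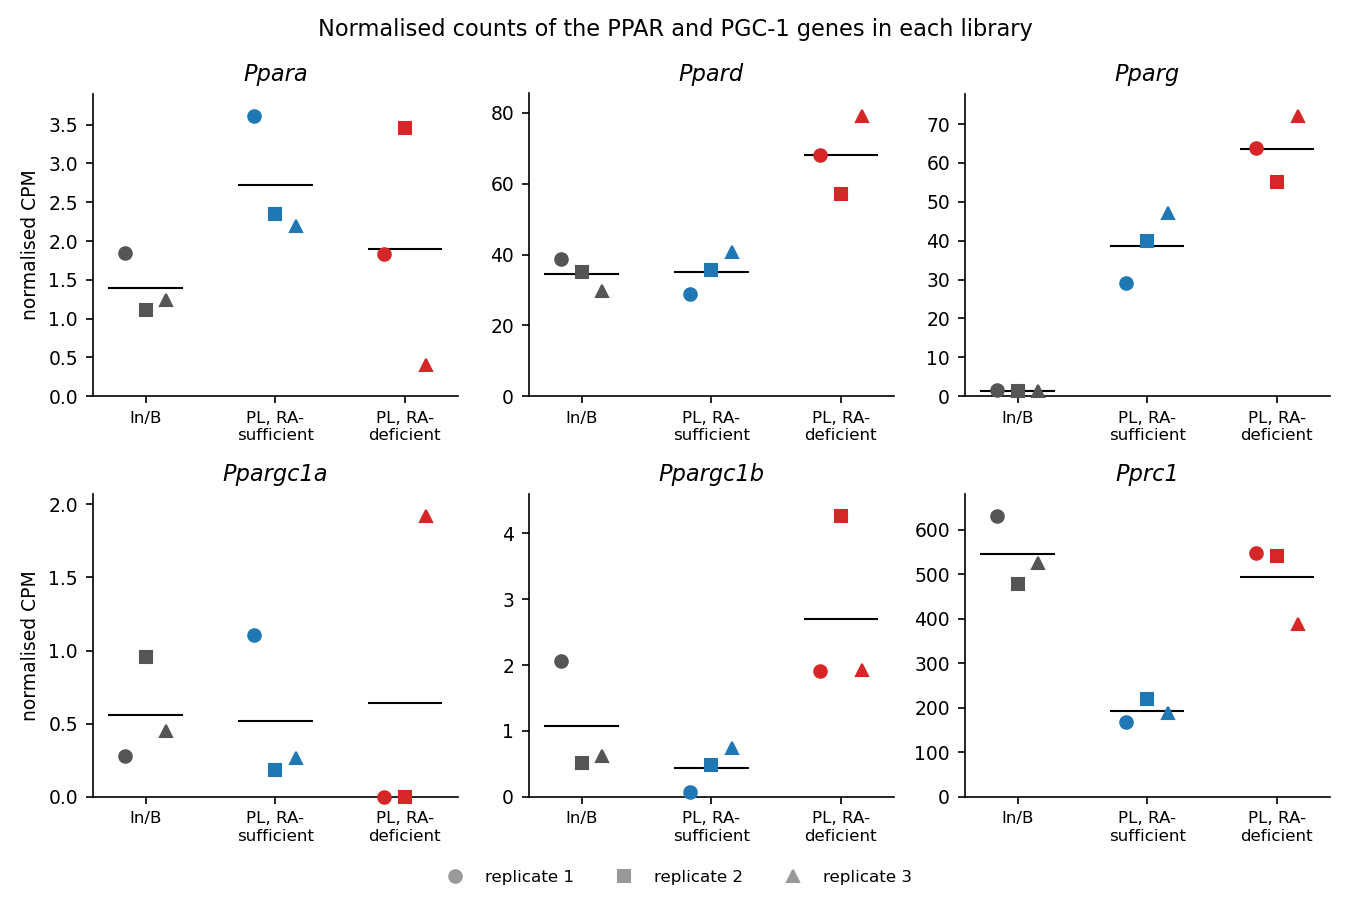
Normalised CPM (y axis, linear from 0, with its own range for each gene) of the 6 genes in the 9 libraries, with a symbol per replicate and a line at the mean of each group. Pparg is near 0 in In/B and separates all 3 groups, Pprc1 is low in the 3 RA-sufficient PL libraries, Ppard is high in the 3 RA-deficient PL libraries, and Ppara, Ppargc1a and Ppargc1b stay below 5 CPM.

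Ppard, the broadly expressed receptor, was higher in RA-deficient PL than in either other group. It lies on chromosome 17 (28369699 to 28438414, plus strand), and its levels were 38.8, 35.0 and 29.7 CPM in In/B and 28.7, 35.6 and 40.7 CPM in RA-sufficient PL, which overlapped throughout. In RA-deficient PL they were 68.2, 57.0 and 79.1 CPM, all above the other 6 libraries.

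Between RA-sufficient PL and In/B the log2 difference of Ppard was 0.07 (SE 0.19, adjusted p = 0.766, quasi-likelihood test of edgeR, Benjamini-Hochberg over all genes tested). It was called higher in RA-deficient PL than in In/B, with a log2 fold change of 1.11 (SE 0.19, adjusted p = 0.00286 from the same test). This value lies close to the required change of 1 on the log2 scale. Without RA-deficient PL replicate 3 it was 0.99, and with scaling by library size alone it was 0.79, in a setting that lowered the median of all genes by 0.32, so that the call was lost while the adjusted p stayed below 0.05. It was also lost with all 9 libraries in 1 fit (0.98). Relative to the median gene, Ppard was higher by 1.11 with TMM and by 1.10 with library size alone. Against RA-sufficient PL the log2 difference was 0.93 (SE 0.19, adjusted p = 0.0154), which passed the adjusted p and missed the required change. It was called without RA-sufficient PL replicate 3 (1.02) and without RA-deficient PL replicate 2 (1.05), and it lost the adjusted p without RA-sufficient PL replicate 2 (adjusted p = 0.0657) and without RA-deficient PL replicate 1 (adjusted p = 0.0527).

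Ppara, on chromosome 15 (85565413 to 85633249, plus strand), was a low transcript in every group. It had 1.84, 1.11 and 1.24 CPM in In/B, 3.61, 2.35 and 2.19 CPM in RA-sufficient PL, and 1.83, 3.45 and 0.401 CPM in RA-deficient PL, from 9 to 86 counts per library. The RA-sufficient PL libraries lay above the In/B libraries without overlap, while RA-deficient PL spanned nearly the whole range. The log2 difference of RA-sufficient PL from In/B was 1.00 (SE 0.42) and did not pass the test (adjusted p = 0.0653), although it did without In/B replicate 1 (log2 1.24, adjusted p = 0.0448). Ppara did not pass in RA-deficient PL against In/B (log2 0.57, SE 0.87, adjusted p = 0.654) or against RA-sufficient PL (log2 -0.55, SE 0.81, adjusted p = 0.657). RA-deficient PL replicate 2 decided the sign of the former, which was -0.21 without it.

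The balance between Ppard and Pparg differed between spermatogonia and spermatocytes. This difference follows mostly from the rise of Pparg, for which the set was picked, and is no separate result. In In/B libraries Ppard had 23.0 to 24.4 counts for each count of Pparg, and in the PL libraries the counts of the pair were nearly equal, at 0.864 to 0.987 of Ppard for each of Pparg in RA-sufficient PL and 1.04 to 1.10 in RA-deficient PL. These ratios are of counts without correction for length. The 3 receptors together had 32.2 to 42.2 CPM in In/B, 61.5 to 90.0 in RA-sufficient PL and 115 to 152 in RA-deficient PL. This sum includes Pparg, so its rise from In/B restates in large part the rise of Pparg.

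Pprc1, the PGC-1-related coactivator that responds to growth stimulation, was the main PGC-1 transcript in all libraries, and it was the only member of the family that was called lower in RA-sufficient PL. It lies on chromosome 19 (46119376 to 46147405, plus strand) and shares 177 exon bases with the antisense gene Ldb1, whose reads could be counted with it if strand was not used. Pprc1 had 630, 479 and 525 CPM in In/B, 169, 219 and 188 CPM in RA-sufficient PL and 548, 542 and 389 CPM in RA-deficient PL. The RA-sufficient PL libraries lay below all other 6, and the RA-deficient PL and In/B libraries overlapped.

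The level of Pprc1 was 2.75-fold lower in RA-sufficient PL than in In/B (log2 -1.46, SE 0.15, adjusted p = 7.14e-05). It was 2.52-fold higher in RA-deficient PL than in RA-sufficient PL (log2 1.33, SE 0.17, adjusted p = 0.00278). Between RA-deficient PL and In/B the log2 difference was -0.02 (SE 0.17, adjusted p = 0.957). Both calls held with every library left out in turn. The samples that were low in Pprc1 were those with the highest sum of Sertoli markers and the lowest sum of spermatogonia markers, given above, and the part of either in the result was not tested.

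Ppargc1b, on chromosome 18, was expressed at a low level and was highest in RA-deficient PL. It had 2.07, 0.516 and 0.618 CPM in In/B, 0.0737, 0.482 and 0.744 CPM in RA-sufficient PL and 1.91, 4.26 and 1.92 CPM in RA-deficient PL, from 1 to 106 counts per library. The PL groups did not overlap, while In/B replicates 2 and 3 lay within the RA-sufficient PL range and In/B replicate 1 within the RA-deficient PL range. The log2 difference between RA-deficient and RA-sufficient PL was 2.58 (SE 0.93) and did not pass the test (adjusted p = 0.0843). It passed without RA-deficient PL replicate 3 (2.75, adjusted p = 0.0451) and with DESeq2 (2.59, adjusted p = 0.0364). Against In/B the log2 differences were -1.16 (SE 0.81, adjusted p = 0.237) for RA-sufficient PL and 1.46 (SE 0.81, adjusted p = 0.200) for RA-deficient PL.

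Ppargc1a, on chromosome 5 (51845488 to 51958964, minus strand), which encodes the cold- and fasting-inducible PGC-1α, was close to the limit of detection. It had 5, 26 and 8 counts in In/B and 15, 3 and 6 counts in RA-sufficient PL. RA-deficient PL replicates 1 and 2 had 0 counts, which allows up to 0.122 and 0.120 CPM, while replicate 3 had 43 counts (1.92 CPM), the highest of all libraries. Ppargc1a was too low to be tested in either comparison with RA-sufficient PL. In RA-deficient PL against In/B the log2 difference was 0.29 (SE 1.80, adjusted p = 0.920), and its sign turned without RA-deficient PL replicate 3 or without In/B replicate 1 (-0.025). With that RA-deficient PL library left out, Ppargc1a was called lower (log2 -6.62, adjusted p = 0.0277) and became the 1 member called, with both remaining RA-deficient PL libraries at 0 counts and the fitted fold change set by the prior count.

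Of the members other than Pparg, 0 of the 4 tested were called higher and 1, Pprc1, was called lower in RA-sufficient PL than in In/B, where 26.1% and 19.3% of all 15001 genes tested were called in these directions. In RA-deficient PL against In/B, 1 of 5, Ppard, was called higher and 0 lower, where the shares over all 14877 genes were 11.4% and 11.8%. Between the PL groups, 1 of 4, Pprc1, was called higher in RA-deficient PL and 0 lower, beside 4.47% and 11% of 15352 genes. At an unadjusted p below 0.05, 1 member was higher and 1 lower in the first comparison, 1 and 0 in the second and 3 and 0 in the last, and DESeq2 also called 0 members in the directions with 0 calls. Counts this small cannot be set apart from the shares over all genes.

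**Figure D2:**
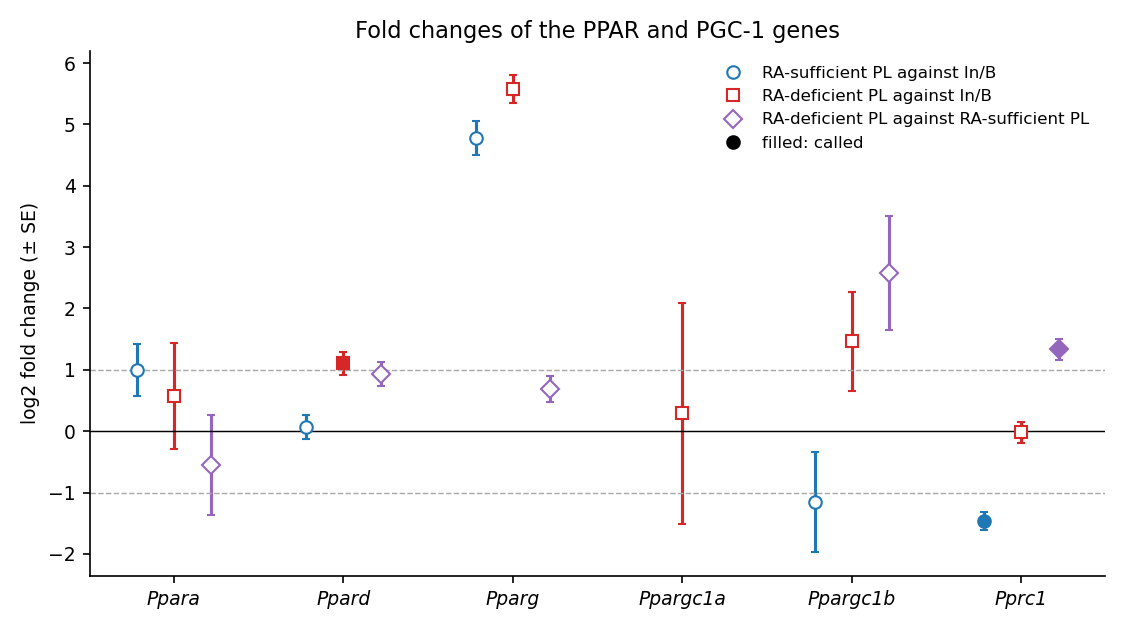
Fold changes (log2, y axis) of the 6 genes in the 3 comparisons, with bars for the SE and dashed lines at the change of 1 that a call requires. Filled symbols, for Ppard and Pprc1, were called with edgeR, open symbols were not called or, for Pparg, not tested, and Ppargc1a has a value in RA-deficient PL against In/B alone.

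The levels of the members were also compared per kb of exon, using the union of annotated exons. Pprc1 had the highest level in each group, with means of 72.4, 25.5 and 65.6 CPM per kb in In/B, RA-sufficient PL and RA-deficient PL. In In/B, Ppard came next (7.45 CPM per kb), followed by Pparg (0.731), Ppara (0.364), Ppargc1b (0.267) and Ppargc1a (0.0847). In both PL groups Pparg was second, with 19.5 and 32.1 CPM per kb, above Ppard with 7.56 and 14.7.

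Some neighbours in these orders could not be separated. In RA-sufficient PL the ranges of Pprc1 (22.4 to 29.1 CPM per kb) and Pparg (14.7 to 23.8) overlapped, while in RA-deficient PL Pprc1 (51.8 to 72.9) lay above Pparg (27.7 to 36.3). Pparg lay above Ppard without overlap in both PL groups and below it in In/B, an order that again turns on the rise for which Pparg was picked. Ppara and Ppargc1b overlapped in In/B and in RA-deficient PL, and Ppargc1a overlapped Ppargc1b in In/B and RA-sufficient PL and Ppara in RA-deficient PL.

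**Figure D3:**
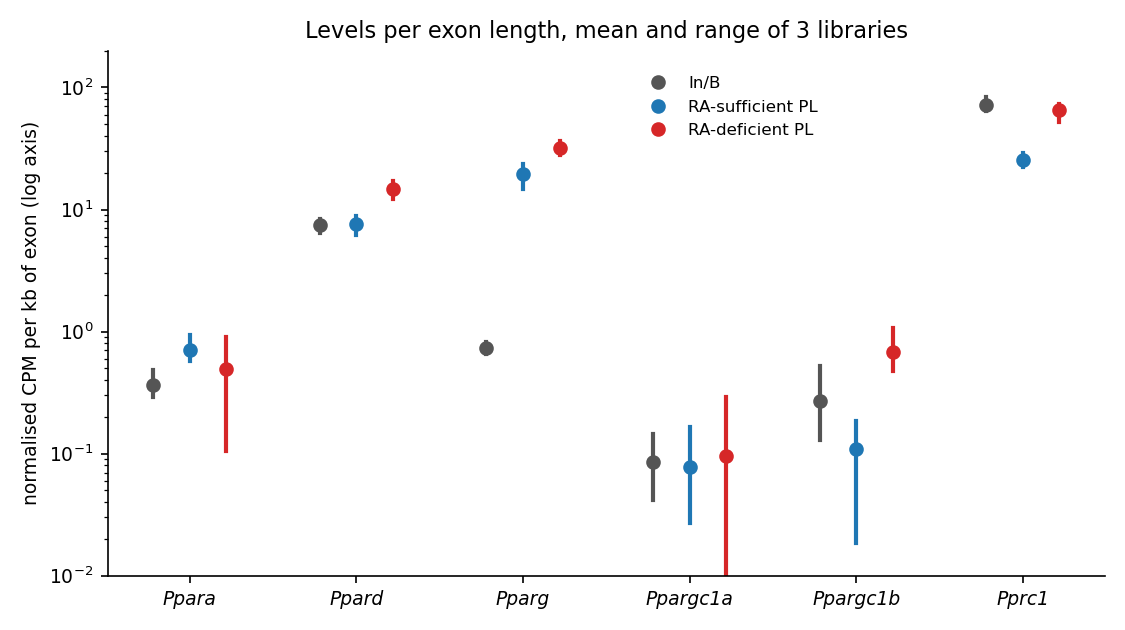
CPM per kb of exon (y axis, log scale) of the 6 genes, with points for the mean and lines for the range of the 3 libraries of each group. Pparg moves from 0.731 in In/B to 19.5 and 32.1 in the PL groups, and the line of Ppargc1a in RA-deficient PL runs off the axis because 2 libraries had 0 counts.

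The profiles of the members over the 9 libraries differed from each other. By the root mean square (RMS) difference of log2 CPM after each gene was centred on its mean, the nearest pair was Ppard and Pprc1 (0.70), followed by Ppargc1b and Pprc1 (0.96) and Ppard and Ppargc1b (1.00). Pparg was at 2.12 or more from every other member. This measure grows with the size of a change, so the distance of Pparg restates the rise for which it was picked.

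Among 15835 genes with enough counts over all libraries, those nearest to Pparg were Traf5 (RMS difference 0.284), a signalling adaptor of TNF receptors, Unc13a (0.305), a synaptic vesicle priming factor, Rhox11 (0.367), an X-linked homeobox gene, Rbpms2 (0.383), an RNA-binding protein, and Celf6 (0.463), an RNA-binding splicing regulator. Traf5 had 0.898 ± 0.0583, 20.8 ± 1.87 and 31.0 ± 6.64 CPM in In/B, RA-sufficient PL and RA-deficient PL (SD, n = 3). Unc13a had 2.64 ± 1.28, 68.5 ± 12.3 and 95.4 ± 11.1 CPM, and Rbpms2 had 15.3 ± 1.12, 212 ± 42.9 and 419 ± 32.9 CPM. As with Pparg, each was low in In/B and had its highest mean in RA-deficient PL. The genes were picked for nearness to Pparg over these same libraries, so this likeness follows from the choice and is no separate result. Rhox11 had 0 counts in all In/B libraries and left the first 5 when the prior count was lowered from 2 to 0.5, whereas the other four stayed.

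**Figure D4:**
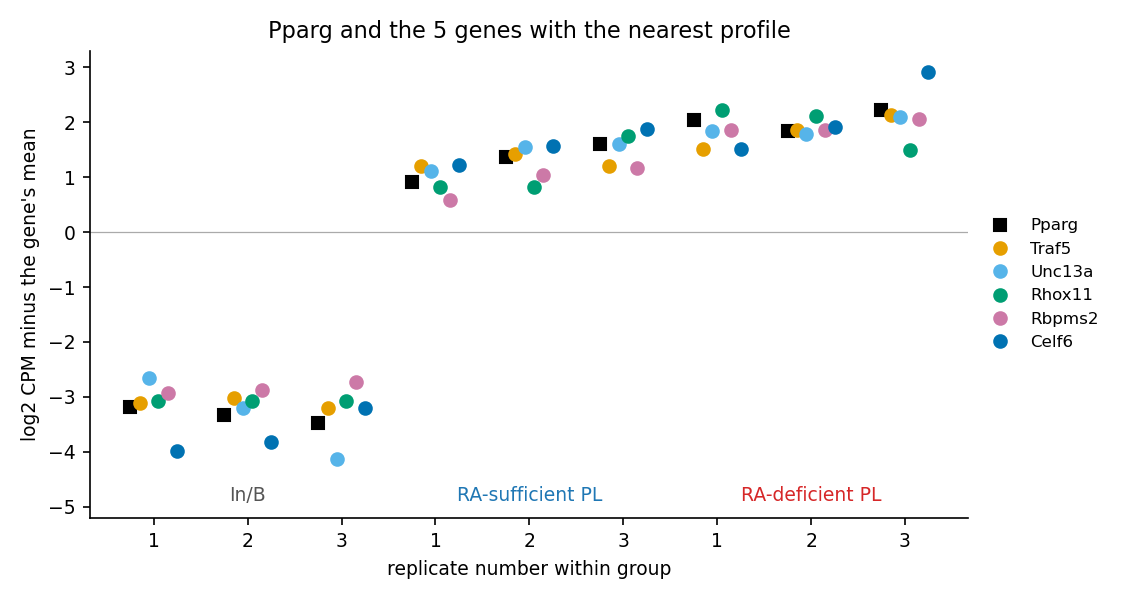
Centred log2 CPM (y axis, each gene minus its own mean over the 9 libraries) of Pparg and the 5 genes with the smallest RMS difference from it, by group and replicate number (x axis). All 6 genes lie below their mean in the 3 In/B libraries and above it in the 6 PL libraries. The likeness follows from the choice of the 5 genes by nearness to Pparg.

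The partners of the PPARs differed between groups as well. Rxra, one of the RXR genes, had 111 ± 20.8 CPM in In/B, 17.5 ± 5.54 in RA-sufficient PL and 39.8 ± 7.40 in RA-deficient PL (SD, n = 3). Its log2 fold changes were -2.61 (adjusted p = 5.79e-05) and -1.35 (adjusted p = 0.00201) against In/B, and 1.16 (adjusted p = 0.0279) between RA-deficient and RA-sufficient PL. Rxrb was not called, with means of 89.4, 91.6 and 112 CPM, and Rxrg was too low to be tested. The call between the PL groups was lost with scaling by library size alone. Rxra was thus lower in both of the groups in which Pparg was high.

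Among 10 other coactivators that PPARs recruit, 1 was called higher and 2 lower in RA-sufficient PL than in In/B, with a median log2 of 0.31 beside 0.04 over all genes, of which 26.1% and 19.3% were called in these directions. In RA-deficient PL 5 were higher and 1 lower than in In/B (median 0.97, beside 0.00 over all genes and shares called of 11.4% and 11.8%), and 4 were higher and 0 lower than in RA-sufficient PL (median 0.93, beside -0.09 and shares called of 4.47% and 11%). At an unadjusted p below 0.05, 1 was lower between the PL groups in edgeR's test. The acetyltransferase gene Ep300 had 307 ± 12.8, 398 ± 83.9 and 890 ± 111 CPM (SD, n = 3) and was called higher in RA-deficient PL than in In/B (log2 1.67, adjusted p = 8.13e-05). Ncoa6, a PPAR-binding coactivator, was higher in RA-deficient than in RA-sufficient PL (log2 1.14, adjusted p = 0.00111). Carm1, an arginine methyltransferase, rose from In/B to RA-sufficient PL (log2 2.37, adjusted p = 0.000179) and to RA-deficient PL (log2 2.92, adjusted p = 0.000212). Prdm16, a brown fat regulator, fell from In/B to RA-sufficient PL (log2 -2.57, adjusted p = 7.56e-05) and to RA-deficient PL (log2 -1.13, adjusted p = 0.0123). With scaling by library size alone, 1 in place of 4 was called between the PL groups.

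Of 6 corepressors 0 were called higher in the 3 comparisons in edgeR's test, and at an unadjusted p below 0.05 the numbers higher were 0, 1 and 2. Over all genes, 26.1%, 11.4% and 4.47% were called higher in these comparisons. Tbl1x, a subunit of the NCoR complex, was called lower than in In/B in RA-sufficient PL (log2 -1.80, adjusted p = 3.37e-05) and in RA-deficient PL (log2 -1.23, adjusted p = 0.00472). Nrip1, which represses PPAR targets in fat, was called lower in RA-deficient PL than in In/B (log2 -1.72, adjusted p = 0.00189) and than in RA-sufficient PL (log2 -1.49, adjusted p = 0.0163). In RA-deficient PL against In/B 3 of the 6 were called lower, with a median log2 of -0.78, beside 11.8% and a median of 0.00 over all genes.

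Factors known to act on the Pparg gene in fat cell precursors were called in both directions. Of 13 tested, 2 were called higher and 6 lower in RA-sufficient PL than in In/B, beside 26.1% and 19.3% of all genes. Of 14 tested, 2 were called higher and 1 lower in RA-deficient PL than in In/B. These counts lie near the shares over all genes, 11.4% and 11.8%. Between the PL groups 2 of 13 were called higher and 0 lower in edgeR's test, with 2 lower at an unadjusted p below 0.05. The shares over all genes were 4.47% and 11% there. Without RA-deficient PL replicate 3, 3 of 14 were called higher and 2 lower between the PL groups. Klf15 was called higher than in In/B in RA-sufficient PL (log2 3.00, adjusted p = 0.000265) and in RA-deficient PL (log2 1.99, adjusted p = 0.0388). Klf5 was called lower than in In/B in RA-sufficient PL (log2 -3.03, adjusted p = 0.000309) and was not called in RA-deficient PL (log2 -1.47). In RA-deficient PL Klf2, known as a repressor of Pparg, was called higher than in In/B (log2 1.74, adjusted p = 0.0129). Gata2, another repressor, was called lower than in In/B in RA-sufficient PL (log2 -3.27, adjusted p = 0.00078) and in RA-deficient PL (log2 -1.72, adjusted p = 0.00172). Dlk1, which holds back fat cell formation, was called higher in RA-deficient than in RA-sufficient PL (log2 2.48, adjusted p = 0.00484).

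Enzymes that make lipid ligands of PPARs were low. Of 8 listed, 5 had enough counts to be tested in RA-sufficient PL against In/B, where their means were higher. Ptgds and Alox15 passed the filter on low counts through RA-sufficient PL, being too low to be tested in RA-deficient PL against In/B. Ptgds, a prostaglandin D synthase, had 3.41 ± 2.98 CPM in RA-sufficient PL and 0.0123 ± 0.0213 in In/B (SD, n = 3). Their direction was thus partly set by the filter, and the 5 of 5 called higher, beside 26.1% of all genes, are no result about the list. In the comparisons with RA-deficient PL 0 were called in edgeR's test, and at an unadjusted p below 0.05 the numbers were 0 against In/B and 1 lower against RA-sufficient PL. Without RA-deficient PL replicate 3, 4 were called lower than in RA-sufficient PL. The Sertoli and macrophage markers were higher in the same RA-sufficient PL libraries, the latter summing to 53.6 to 61.4 CPM against 5.92 to 7.52 in In/B, and their part in the result was not tested.

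Genes for fatty acid uptake and binding and the known targets of the receptors were called in both directions. Over all genes, the shares called higher and lower were 26.1% and 19.3% in RA-sufficient PL against In/B, 11.4% and 11.8% in RA-deficient PL against In/B, and 4.47% and 11% between the PL groups, and several of the counts given next lie near these shares. For uptake and binding, 3 of 8 tested were called higher and 1 lower in RA-sufficient PL than in In/B, 1 higher and 1 lower of 8 in RA-deficient PL, and 1 higher and 2 lower of 9 between the PL groups. Slc27a1, a fatty acid transporter, was called higher in both PL groups than in In/B, with 52.0 ± 5.69, 124 ± 21.5 and 97.3 ± 7.11 CPM (SD, n = 3; log2 1.29 and 1.03), the latter call being lost with scaling by library size alone. Slc27a2, an acyl-CoA synthetase of very long chains, fell in RA-sufficient PL (log2 -2.12) and was higher in RA-deficient than in RA-sufficient PL (log2 2.71, adjusted p = 0.0233). Without RA-deficient PL replicate 3, 4 were called higher and 2 lower of 8 in RA-deficient PL against In/B, and 2 higher and 4 lower of 10 between the PL groups.

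Of the targets best known for PPARA, in fatty acid oxidation and ketone formation, 5 of 22 tested were called higher and 7 lower in RA-sufficient PL than in In/B (median log2 -0.06). The numbers were 2 and 7 of 21 in RA-deficient PL against In/B (median -0.74), and 0 and 6 of 25 between the PL groups (median -0.43). Ehhadh and Cpt1b, not called between the PL groups, passed the filter on low counts there through RA-sufficient PL. They had 0.721 and 1.35 CPM in RA-sufficient PL, against 0.0541 and 0.223 in RA-deficient PL. The number tested and the median between the PL groups were thus partly set by the filter. The thiolase gene Acaa1b fell in RA-sufficient PL (log2 -3.07, adjusted p = 3.24e-05). Acadl, a long-chain acyl-CoA dehydrogenase, was also called lower in RA-sufficient PL (log2 -1.48, adjusted p = 0.000142) and in RA-deficient PL (log2 -1.46, adjusted p = 0.00146). Acaa1b and Acadl were not called between the PL groups (log2 -0.07 and -0.10). Cpt2, of the carnitine shuttle, rose in RA-deficient PL against In/B (log2 1.24, adjusted p = 0.000721). Acaa2, a mitochondrial thiolase, was lower in RA-deficient than in RA-sufficient PL (log2 -2.71, adjusted p = 0.00213).

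Of the targets best known for PPARG, in lipid storage, 5 of 18 tested were called higher and 4 lower in RA-sufficient PL than in In/B (median log2 0.43), 3 and 2 of 19 in RA-deficient PL against In/B (median 0.02), and 0 and 2 of 20 between the PL groups (median 0.12). Without RA-deficient PL replicate 3, 1 was called higher and 4 lower of 19 between the PL groups, and the median turned to -0.13. Lpl, the lipase that releases fatty acids from circulating triglycerides, fell in both PL groups, with 13.7 ± 2.58, 1.23 ± 0.399 and 0.770 ± 0.709 CPM (SD, n = 3; log2 -3.45 and -4.00). Cidea, a lipid droplet protein, had 1.13 ± 0.854, 50.7 ± 15.2 and 0.952 ± 0.362 CPM (SD, n = 3). It was called higher in RA-sufficient PL than in In/B (log2 5.48, adjusted p = 8.15e-05), so it was high in 1 of the 2 groups with high Pparg. The RA-sufficient PL libraries in which Cidea and Acaa2 were highest were also those with the highest Sertoli markers, and the part of these in the result was not tested.

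Partners, regulators and targets of PGC-1 were also called in both directions. The shares over all genes given with the uptake genes apply here as well, and several of the counts lie near them. Of 9 or 10 partner factors tested, 1 was called higher and 3 lower in RA-sufficient PL than in In/B, 0 and 1 in RA-deficient PL against In/B, and 1 and 1 between the PL groups. Leaving out RA-deficient PL replicate 3 gave 0 higher and 2 lower against In/B, and 2 and 2 between the PL groups. Where a direction had 0 calls in edgeR's test in the lists of targets, partners and regulators, between 1 and 3 genes reached an unadjusted p below 0.05 in it. Foxo1, a forkhead factor that PGC-1α coactivates, had 198 ± 16.2, 68.4 ± 5.01 and 154 ± 8.19 CPM (SD, n = 3), low in RA-sufficient PL like Pprc1 (log2 -1.49 against In/B, and 1.14 between RA-deficient and RA-sufficient PL). Of 12 regulators, 1 was higher and 3 lower, 2 and 0, and 1 and 1 in the same order of comparisons, among them Prkaa2, a catalytic subunit of AMP kinase, which was called higher in RA-deficient than in RA-sufficient PL (log2 1.23, adjusted p = 0.0204). Of 15 targets of mitochondrial biogenesis, 2 were higher and 2 lower (median log2 -0.22), 3 and 2 (median -0.22), and 0 and 2 (median 0.11). Ucp2, an inner membrane carrier, was called higher in both PL groups than in In/B, with 31.7 ± 10.96, 157 ± 35.1 and 134 ± 15.6 CPM, and Cox4i1, a subunit of cytochrome c oxidase, was called lower in both, with 249 ± 21.1, 80.9 ± 7.47 and 89.2 ± 11.6 CPM (SD, n = 3).

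**Figure D5:**
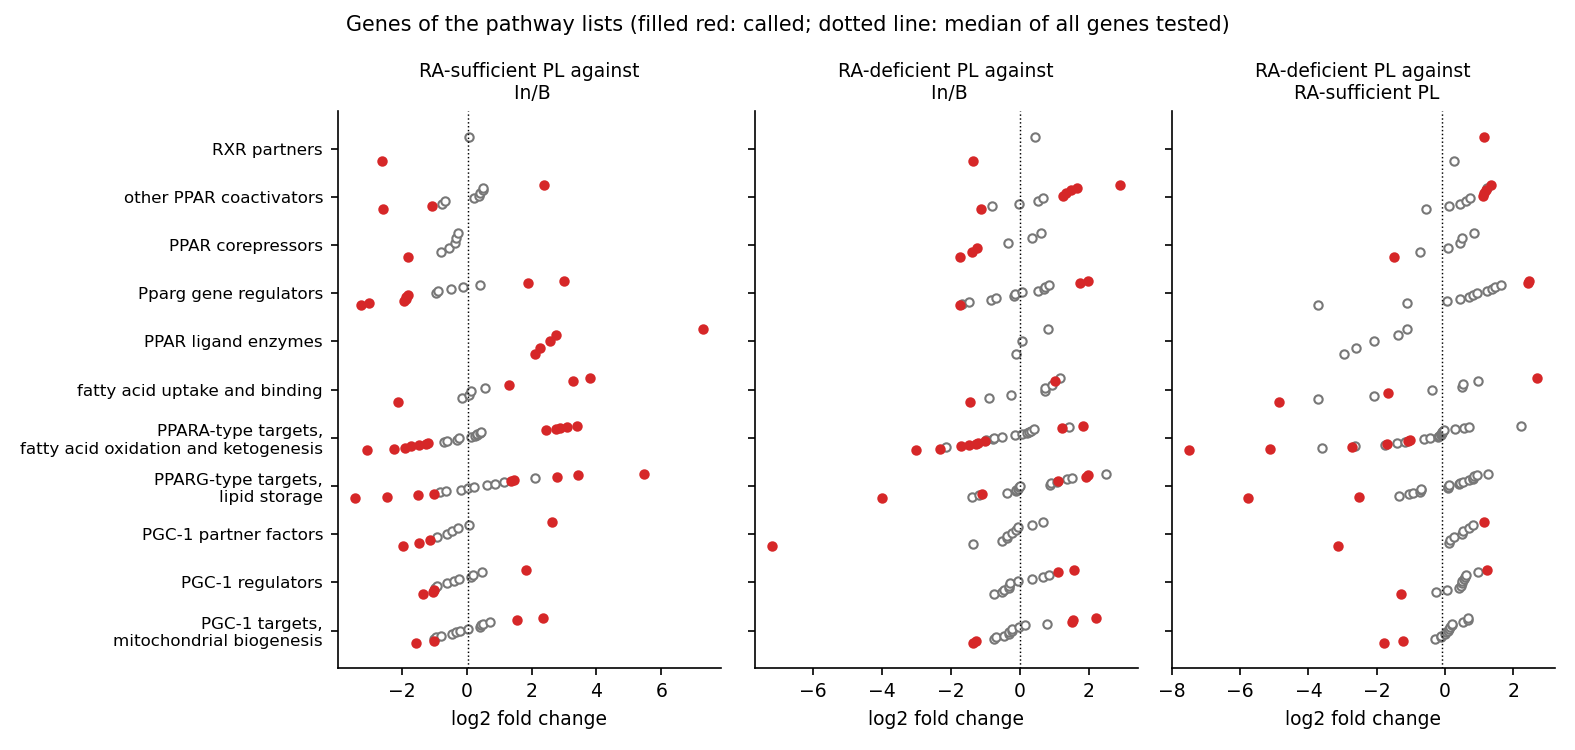
Fold changes (log2, x axis) of the tested genes of 11 lists around the PPARs and PGC-1 coactivators in the 3 comparisons, with filled red points for called genes and a dotted line at the median of all genes tested. Most lists hold points on both sides of that median, and the 5 ligand enzymes tested in RA-sufficient PL against In/B lie to its right, of which Ptgds and Alox15 passed the filter through RA-sufficient PL.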

How the data were processed

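Per the submitters' processing notes, reads were trimmed (cutadapt 1.9), aligned to mm9 (STAR 2.5.2b) and counted per gene (featureCounts) by the authors. The deposited table holds these raw counts for 24505 genes, without normalization. The annotation and the strand setting of the counting are not given in the sources used here. All 9 columns were matched to a library by name and 0 were left unused.

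Groups were compared in pairs, 3 libraries each, with edgeR 4.0.16 in R 4.3.3 (TMM scaling, filterByExpr, quasi-likelihood test, Benjamini-Hochberg adjustment over all genes tested). Per the paper's methods the RNA came from 2 or 3 independent preparations of cells, and no source ties a library to its preparation, so p-values measure the spread between libraries, part of which may be technical. Comparisons of libraries by their numbers showed no pairing, with correlations of deviations above 0.1 in 2 of 9 pairs. Coordinates and exon lengths are from GENCODE M1 (NCBIM37, the same build as mm9). Scripts were tested on simulated data.

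The members and the gene lists were chosen with earlier results of these data known. Named genes are the 6 members, the called gene with the lowest p per list, direction and comparison (not all are described, and 1 is not reported here), and the 5 genes nearest to Pparg by RMS difference with a prior count of 2. Rxrb and the marker genes fall outside this rule and were named after their values were seen. Alternatives were RLE factors or library size alone, no filter, all 9 libraries in 1 fit, a replicate block, DESeq2 1.42.0, an adjusted p below 0.01 and each library left out. Plots were made in Python 3.11.15 (matplotlib 3.10.9). Floors cover counting error only, while SEs, SDs and ranges include the spread between libraries.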

Additional observations from a re-analysis of the deposited data

Results flagged for a closer look

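Pprc1 differed between the 2 PL groups in its change from In/B, with a log2 difference of 1.33 between RA-deficient and RA-sufficient PL in the direct test (edgeR, adjusted p = 0.00278). It was lower than in In/B in 3 of 3 RA-sufficient PL libraries, and the RA-deficient PL libraries overlapped those of In/B.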

How the results depend on the processing

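The calls of Pprc1 held under every alternative run. With scaling by library size alone, RA-deficient PL against In/B gave 0 members called, log2 values of 0.79 for Ppard and 5.26 for Pparg, and -0.031 for Ppargc1a. That scaling moved the median of all genes by -0.32 there and by -0.18 between the PL groups, and the share of calls that were higher from 49.1% to 28.9% and from 28.8% to 17.5%. With all 9 libraries in 1 fit, the same comparison gave 0 members called and 0.98 for Ppard. With the replicate block, Ppargc1a was at -2.86 in RA-deficient PL against In/B, 1 member was called in each comparison, and 1765 genes in place of 2383 were called between the PL groups. The block changed no other call of a member. Between the PL groups, DESeq2 called 2 members, with Ppargc1b at 2.59, and an adjusted p below 0.01 left 973 genes called.

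When libraries were left out singly, members called ranged from 1 to 2 for RA-sufficient PL against In/B, with Ppara from 0.74 to 1.24 and Ppard from -0.052 to 0.19 on the log2 scale. In RA-deficient PL against In/B, Ppard ranged from 0.99 to 1.20, Ppara from -0.21 to 1.05, Pprc1 from -0.12 to 0.13 and Ppargc1a from -6.62 to 0.89, the lowest value, called without RA-deficient PL replicate 3, coming from 2 libraries at 0 counts and so set by the prior count. In that fit Ppard lost its call. Between the PL groups the members called ranged from 1 to 2, Ppard from 0.82 to 1.05, Ppargc1b from 2.07 to 3.19 and the genes called from 1190 to 4484, the last without RA-deficient PL replicate 3. The causes of these shifts were not tested. Depth limits Ppara, Ppargc1a and Ppargc1b, which rest on at most 106 counts per library.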
